A study of Mus musculus with 6 samples.

Results

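The effect of losing IRF4 in cells that already lack IRF8 was examined by setting the 2 arrays labelled IRF4/8 DKO against the 2 labelled IRF8 KO, 4 of the 6 arrays of the study. The cells were granulocyte/macrophage progenitors (GMPs), the bone marrow progenitors of granulocytes and monocytes, from BL6 mice. The study asks how both deficiencies act together in blood cancers. Cells without lineage markers, IL-7R and Sca1 that carried Kit, CD34 and high Fc receptors II and III were hybridised as biotin-labelled cRNA to Affymetrix Mouse Genome 430 2.0 arrays. The IRF8 KO arrays came from a female of 12 weeks (replicate 1) and a male of 22 weeks (replicate 2), and the IRF4/8 DKO arrays from a male and a female of 16 weeks (replicates 1 and 2). By their labels both genotypes lack IRF8. Wild-type (WT) mice, a male of 12 weeks and a female of 19 weeks, served as the reference for whether the double loss extended or reversed the difference seen with the single loss. The sources used here do not say how the alleles were made or whether mice were littermates. Values are intensities on a linear scale, and the genes described are those whose 2 IRF4/8 DKO arrays both lay outside both IRF8 KO arrays.

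IRF8 and IRF4 are closely related interferon regulatory factors of blood and immune cells. Both bind DNA weakly alone and act with partners, the Ets factors PU.1 and SpiB or the AP-1 factor BATF. On interferon-stimulated response elements IRF8 acts with other IRFs. IRF8 drives monocyte and dendritic cell development and restrains neutrophil production, while IRF4 is best known from lymphocytes, plasma cells and dendritic cells.

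With IRF4 lost as well, the widest gaps among lower genes were at genes of platelets, eosinophils and antigen presentation. Pf4, Cavin2, Prg2 and H2-Aa had the 4 widest. Among higher genes, B4galt4, the inhibitory receptor gene Btla, the endotoxin co-receptor gene Cd14 and the interferon-inducible GTPase genes Irgm2 and Gbp6 had gaps of 1.49 to 2.42 on the log2 scale. The gap is the log2 distance between the nearest arrays of the genotypes, on log2(value + 10.5), so that the size of a difference at a gene near the floor depends on the 10.5 added. No difference between the genotypes passed the limma test: 0 of 29783 probe sets were called, a percentage of 0.0, with a smallest adjusted p of 0.364. At an unadjusted p under 0.05 there were 2538 (8.52%), 1435 higher and 1103 lower. The limma count was 200 without IRF8 KO replicate 1 (24 higher, 176 lower) and 14 without IRF8 KO replicate 2 (1 higher, 13 lower), fits in which the lone IRF8 KO array is assumed to vary like the other groups. The differences between these genotypes given below were therefore not called, except where another fit is named. An exact permutation test of 2 against 2 arrays cannot give a p below 0.333.

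Both IRF4/8 DKO arrays lay outside both IRF8 KO arrays for 16283 of 45037 probe sets (36.2%), 7735 higher (17.2%) and 8548 lower (19.0%). After median centring of the arrays the split was 9712 higher and 6796 lower. Over the 13267 genes with a probe set above the filter on low values, 4718 were outside (35.6%), 2330 higher (17.6%) and 2388 lower (18.0%). Many of these gaps were narrow. The median was 0.23 on the log2 scale, and 1080 genes (22.9%) had a gap under 0.1. A gap of at least 2-fold was found for 525 probe sets (1.17%) and for 190 genes (1.43%), 73 higher (0.55%) and 117 lower (0.882%). Just inside that limit lay 2610020C07Rik, with a gap of 2.0006-fold, and just outside lay Uros, an enzyme gene of heme synthesis, with 1.9998-fold.

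The position of WT divides these 190 genes. In 15 the double loss extended the single loss, with IRF8 KO between WT and IRF4/8 DKO on every array, 3 of them higher and 12 lower. In 138 it reversed the single loss, 57 higher and 81 lower. Of these, 10 returned part of the way towards WT, 59 had at least 1 IRF4/8 DKO array inside or on both sides of the WT range, and 69 lay past WT on the other side. In another 32 genes IRF8 KO overlapped WT and IRF4/8 DKO stood apart from both. Over all probe sets, 960 extended the single loss, 9095 reversed it and 3522 stood apart. The same 2 IRF8 KO arrays enter both differences with opposite sign, so a deviation of these arrays alone adds to the reversed count, and the numbers that extend and reverse cannot be weighed against each other. The IRF8 KO arrays also differed most from each other, with 8776 probe sets over 2-fold apart, against 2384 in WT and 4714 in IRF4/8 DKO. Probe sets of 1 gene often disagreed, and the one of highest mean stood for each gene. Of 50 named genes that lay outside and had another probe set above the filter, 15 had all of these outside on the same side, 27 had at least 1 that overlapped and none on the opposite side, and 8 had 1 on the opposite side.

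**Figure D1:**
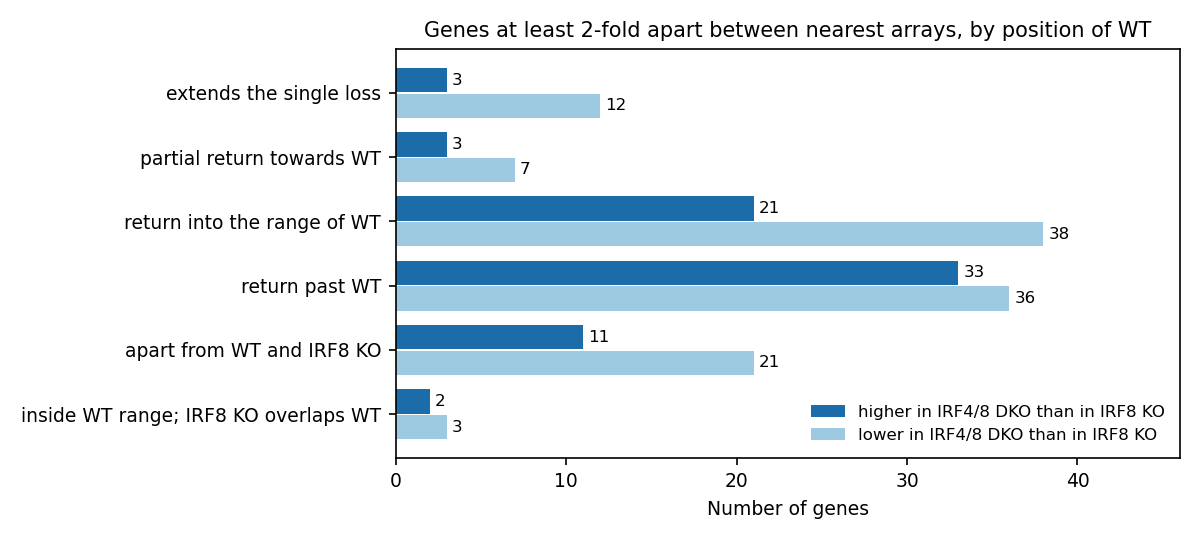
Number of genes with a gap of at least 2-fold between the nearest IRF4/8 DKO and IRF8 KO arrays, by the position of the WT arrays. Dark bars count genes higher in IRF4/8 DKO and light bars genes lower, and the longest bar, 38 genes, is of lower genes back in the range of WT.

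Markers were checked before the results. Kit read 1680 to 2426 and Ptprc, the gene of CD45, 4075 to 6665 over the 6 arrays, while Il7r stayed at 4.31 to 27.1 and Cd4 at 5.92 to 30.2. Cd34 was 1401 to 1747 in WT and 440.3 to 668.6 in the other 4 arrays. Xist and 3 Y-linked genes matched the labelled sex on 6 of 6 arrays. IRF4/8 DKO replicate 1 correlated with WT replicate 2 at r = 0.9727 over probe sets, which are not independent, against 0.967 with its own replicate and 0.9383 between the IRF8 KO arrays.

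The targeted genes did not check the labels, since the sources used here do not place their probe sets against the deleted parts. By its first probe set Irf4 was past WT in the arrays labelled IRF4/8 DKO, at 66.0 and 54.6, against 13.8 and 7.66 in IRF8 KO and 32.1 and 23.5 in WT. The gap was 1.42 on the log2 scale and the difference 1.75 ± 0.38 (SE, n = 2 arrays per genotype, limma adjusted p = 0.482). By the other Irf4 probe set the genotypes overlapped, with a log2 difference of -0.27. Both Irf8 probe sets overlapped between these genotypes too, with differences of 0.17 and 0.12, and by neither was a genotype's mean below that of WT. The first read 2588 and 3052 in WT, against 3811 and 2602 for IRF8 KO and 2611 and 4778 for IRF4/8 DKO. The second measured 507 and 704 on the WT arrays, 1333 and 1131 on the IRF8 KO arrays and 934 and 1900 on the IRF4/8 DKO arrays, above WT by 1.03 and 1.14 on the log2 scale (limma adjusted p = 0.341 and 0.44). Of the IRF family, 8 of 9 genes were measured, and Irf1, Irf2, Irf3, Irf5, Irf7 and Irf9 overlapped.

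Several interferon-inducible genes lay higher with the double loss. Of 25 listed genes 19 were measured, and 6 were higher and 2 lower on every array (31.6% and 10.5%, against 17.6% and 18.0% of all genes). The list median was 0.33 on the log2 scale, against -0.01 over all genes, and 0.08 without IRF4/8 DKO replicate 2. Irgm2, an immunity-related GTPase gene, was not on the list and was named for its wide gap. It read 227 and 305 in WT, against 154 and 152 for IRF8 KO and 576 and 624 for IRF4/8 DKO. Both double-loss arrays were thus above all 4 others, by 1.90 ± 0.41 over IRF8 KO on the log2 scale (SE, n = 2 per genotype, limma adjusted p = 0.482). Its relative Igtp measured 315 and 436 on the WT arrays, 234 and 306 on the IRF8 KO arrays and 482 and 658 on the IRF4/8 DKO arrays. Irgm1 had intensities of 381 and 345 (WT), 216 and 164 (IRF8 KO) and 436 and 255 (IRF4/8 DKO), where the replicates straddled WT.

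Rsad2, the gene of the antiviral enzyme viperin, read 143 and 101 in WT, against 40.9 and 20.1 for IRF8 KO and 131 and 634 for IRF4/8 DKO. Its replicates in IRF4/8 DKO were far apart, only the female array was above WT, and by 2 other Rsad2 probe sets the genotypes overlapped (log2 differences of 0.19 and 0.40, against 2.93 here). The immunoproteasome subunit gene Psmb8 measured 3046 and 4593 on the WT arrays, 1120 and 1739 on the IRF8 KO arrays and 2805 and 3592 on the IRF4/8 DKO arrays, with 1 double-loss array in the range of WT and 1 below it. Psmb9, another subunit, differed little, with a gap of 0.15. The guanylate-binding protein genes did not follow WT in the same way. Gbp6, which was not on the list, had intensities of 3.95 and 6.45 (WT), 39.2 and 17.3 (IRF8 KO) and 129 and 145 (IRF4/8 DKO). It extended the single loss, with a log2 difference of 1.99 ± 0.42 (SE, n = 2 per genotype, limma adjusted p = 0.482). Gbp2 stood apart and read 113 and 74.3 in WT, against 95.3 and 171 for IRF8 KO and 229 and 273 for IRF4/8 DKO. The lower members were Ifit3 and Usp18, with log2 differences of -0.57 and -0.51.

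**Figure D2:**
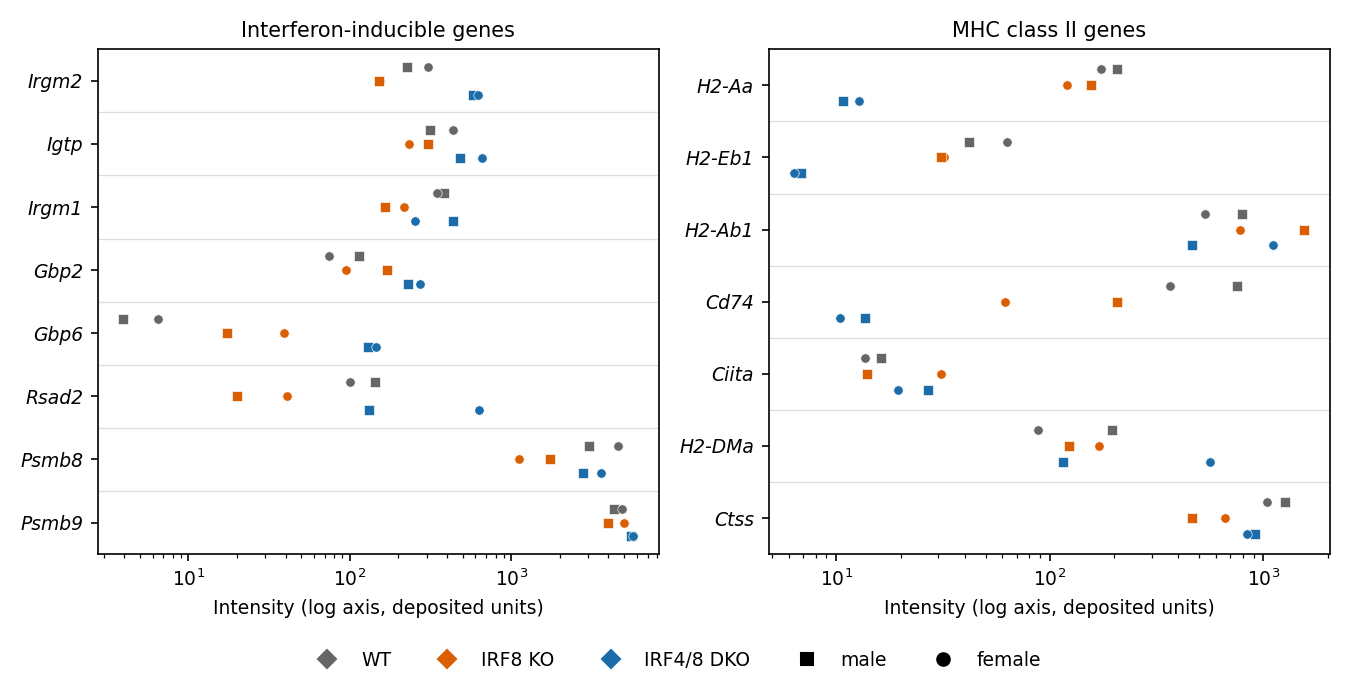
Intensity per array on a log axis for interferon-inducible genes (left) and MHC class II genes (right), coloured by genotype, squares male and circles female. Both IRF4/8 DKO arrays lie above both IRF8 KO arrays for all 8 genes on the left, and below them for H2-Aa, H2-Eb1 and Cd74 on the right. The left panel shows only genes that were higher, with Irgm2 and Gbp6 from outside the list. It leaves out the 2 lower and 11 overlapping members of the interferon list.

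Genes of MHC class II antigen presentation, which dendritic cells, B cells and some progenitors express, were lower in part. Of 8 listed genes 7 were measured. On every array 3 were lower and 1 higher (42.9% and 14.3%, against 18.0% and 17.6% of all genes). The list median was -0.61 (-0.09 without IRF4/8 DKO replicate 1). H2-Aa, the class II alpha chain, measured 206 and 174 on the WT arrays, 120 and 156 on the IRF8 KO arrays and 10.8 and 12.7 on the IRF4/8 DKO arrays. IRF8 KO lay somewhat below WT and the double loss near the floor. The log2 difference from IRF8 KO was -2.73 ± 0.40 (SE, n = 2 per genotype, limma adjusted p = 0.364). The 2 other kept probe sets of H2-Aa were lower on every array as well. Against WT, a comparison in which limma called 89 probe sets (0.299%), the difference of -3.17 passed (adjusted p = 0.0285). The beta chain gene H2-Eb1 had intensities of 41.7 and 62.9 (WT), 31.9 and 30.8 (IRF8 KO) and 6.83 and 6.35 (IRF4/8 DKO).

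Cd74, the invariant chain that guides class II molecules through the cell, read 754 and 365 in WT, against 62.0 and 207 for IRF8 KO and 13.6 and 10.4 for IRF4/8 DKO. It extended the single loss by -2.49 ± 0.60 on the log2 scale (SE, n = 2 per genotype, limma adjusted p = 0.519). H2-Ab1, the partner chain of H2-Aa, did not share this: it read 775 and 1554 for IRF8 KO against 464 and 1108 for IRF4/8 DKO, which overlap. Ciita, the class II transactivator, was low and overlapping, at 14.0 to 31.1 in these 4 arrays. Cathepsin S, Ctss, which processes the invariant chain, was higher, at 913 and 837 against 659 and 462. The dendritic cell list shares 5 of these genes. It had 5 of 14 measured members lower and 2 higher (35.7% and 14.3%, against 18.0% and 17.6% of all genes). Itgax, the gene of the dendritic marker CD11c, read 17.2 to 33.8 over the 6 arrays.

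Several megakaryocyte and platelet genes were lower in IRF4/8 DKO than in IRF8 KO. Of 17 listed genes 14 were measured, and 8 were lower and 0 higher on every array (57.1% lower, against 18.0% of all genes). The list median was -0.78, and it was -1.06 to -0.54 with any 1 of these 4 arrays left out. Pf4, the platelet chemokine gene, measured 2516 and 590.3 on the WT arrays, 798 and 394 on the IRF8 KO arrays and 9.85 and 11.2 on the IRF4/8 DKO arrays. IRF8 KO overlapped WT, and both double-loss arrays were near the low end of the array's scale. The log2 difference was -4.77 ± 0.68 (SE, n = 2 per genotype, limma adjusted p = 0.364), and the gene passed without IRF8 KO replicate 1 (limma adjusted p = 0.0326) and without IRF8 KO replicate 2 (0.0496). Against WT, it was lower by limma (adjusted p = 0.0261).

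Cavin2, a caveolar coat protein gene that platelets express strongly, had intensities of 1543 and 341 (WT), 712 and 111 (IRF8 KO) and 3.1 and 1 (IRF4/8 DKO). The difference was -4.57 ± 0.89 on the log2 scale (SE, n = 2 per genotype, limma adjusted p = 0.482). The double-loss level of Cavin2 lay under the pseudocount of 10.5, which limits the size of the value. The thrombin receptor gene F2r read 1294 and 292 in WT, against 45.5 and 153 for IRF8 KO and 2.25 and 5.19 for IRF4/8 DKO. Here each loss lay below the one before. Plek, the platelet kinase C substrate, measured 1680 and 594 on the WT arrays, 495 and 511 on the IRF8 KO arrays and 134 and 159 on the IRF4/8 DKO arrays. Its other probe sets did not share this, since by one the double loss lay higher on every array (129 and 106 against 77.6 and 92.5) and by the other the genotypes overlapped. Itga2b, the integrin CD41, had intensities of 456 and 93.6 (WT), 55.8 and 21.1 (IRF8 KO) and 8.56 and 8.88 (IRF4/8 DKO). Mmrn1, a platelet granule protein gene outside the list, stood apart at 13.1 and 18.5, against 77.7 and 95.8 in IRF8 KO.

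Other members of the list did not share this. Itgb3, the integrin partner of Itga2b, overlapped at 241 and 319 for IRF8 KO against 298 and 1080 for IRF4/8 DKO, and Vwf, Gp5, Gp9, Tal1 and F2rl2 overlapped as well. The summed intensity of the 14 genes was 2943 to 9719 in WT, 1970 to 2755 in IRF8 KO and 749 to 1713 in IRF4/8 DKO. In sorted bulk cells, fewer cells of a type and less RNA per cell cannot be told apart. Erythroid genes, which share the progenitor of megakaryocytes, were 4 of 14 lower and 2 higher (28.6% and 14.3%, against 18.0% and 17.6% of all genes). Over these 14 genes the median log2 difference was -0.29, with 10 negative and 4 positive. Their summed intensity was 5768 to 5801 in IRF8 KO and 6424 to 7340 in IRF4/8 DKO. Tfrc, a higher member, made up much of each sum, at 5942 and 4271 for IRF4/8 DKO against 3336 and 3777 for IRF8 KO. The sums therefore do not show a rise of the list as a set. Gata1 was 1.62 to 13.1 in the 4 arrays labelled IRF8 KO or IRF4/8 DKO, at or near the floor. The part of such cells in the result was not tested.

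**Figure D3:**
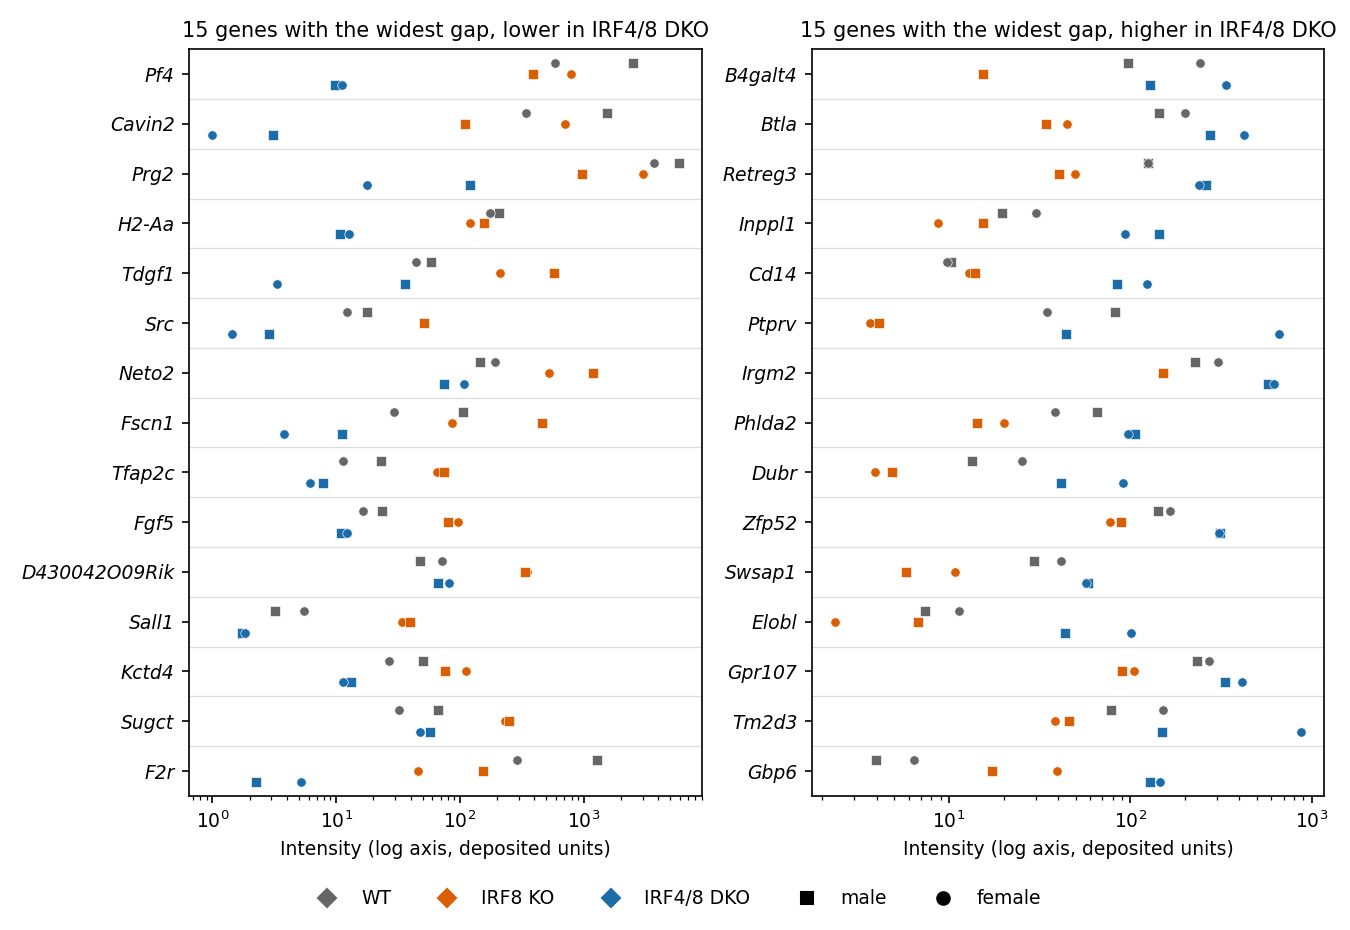
Intensity per array on a log axis for the 15 genes with the widest gap lower (left) and higher (right) in IRF4/8 DKO than in IRF8 KO, coloured by genotype, squares male and circles female. The WT points lie on either side: in Pf4 and Cavin2 with IRF8 KO, in Sall1 and Tfap2c with IRF4/8 DKO.

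Several genes of eosinophils, basophils and mast cells were lower too. Of 22 listed genes 14 were measured, and 7 were lower and 1 higher on every array, with a list median of -0.64 (-1.26 to -0.40 with any 1 of the 4 arrays left out). Prg2, the eosinophil major basic protein, read 5863 and 3689 in WT, against 3029 and 974 for IRF8 KO and 121 and 17.9 for IRF4/8 DKO. The arrays of the 3 genotypes followed in order without overlap, with a log2 difference between IRF4/8 DKO and IRF8 KO of -4.82 ± 0.75 (SE, n = 2 per genotype, limma adjusted p = 0.364). It passed without IRF8 KO replicate 1 (limma adjusted p = 0.049), without IRF8 KO replicate 2 (0.0454) and with a replicate block (0.0464). Its neighbour in function, Prg3, measured 876 and 402 on the WT arrays, 249 and 28.6 on the IRF8 KO arrays and 11.5 and 5.30 on the IRF4/8 DKO arrays. Gata2, the transcription factor of stem and mast cells, had intensities of 1533 and 615 (WT), 117 and 299.7 (IRF8 KO) and 32.3 and 28.1 (IRF4/8 DKO). It extended the single loss by -2.29 ± 0.59 on the log2 scale (SE, n = 2 per genotype, limma adjusted p = 0.519), while its other probe set overlapped.

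The mast cell protease gene Cpa3 read 1526 and 537 in WT, against 68.9 and 49.5 for IRF8 KO and 11.9 and 10.9 for IRF4/8 DKO. Most of its difference from WT was thus present with the single loss (-3.73 on the log2 scale) and the second loss added -1.66. Hdc, Cma1 and Il5ra were lower by gaps of 0.04 to 0.26. Mitf, a transcription factor of mast cells, was the 1 higher member, at 261 and 851 against 232 and 192. Mcpt8, Siglecf, Ms4a2, Epx, Fcer1a and Csf1 overlapped. The list summed to 4924 to 7020 in IRF8 KO and 3382 to 3486 in IRF4/8 DKO, and Fcer1a read 4.44 in IRF8 KO replicate 2 and 3.31 and 4.46 in IRF4/8 DKO. Of the 7 lower members, 6 had a window before the start, and 4 of these held GATAA, the letters GATA factors bind, on either strand, as did 28.4% of all 27025 genes with a window from 250 bases before to 50 bases after a start. Of the lower megakaryocyte members 2 of 7 did (28.6%). The matches of Cpa3 and Prg3 are shown because these are the mast cell and eosinophil members with a match and the widest gap, with each GATAA or its reverse complement in capitals (RefSeq, GRCm38.p6).
Cpa3, chr3:20242202-20242246: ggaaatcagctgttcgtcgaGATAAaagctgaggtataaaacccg
Prg3, chr2:84988084-84988128: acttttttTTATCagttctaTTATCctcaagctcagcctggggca

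Several early lymphoid genes lay lower with the double loss than with the single loss. Of 20 listed B lymphoid genes 11 were measured. On every array 7 were lower and 1 higher (63.6% and 9.1%, against 18.0% and 17.6% of all genes). The median between IRF4/8 DKO and IRF8 KO was -0.64 (-0.71 to -0.35 with any 1 of the 4 arrays left out). Set against the WT mean, the list median was 0.38 and 0.35 in the IRF8 KO arrays and -0.11 on both IRF4/8 DKO arrays. Dntt, the terminal transferase of antigen receptor joining, measured 150 and 64.3 on the WT arrays, 296 and 86.9 on the IRF8 KO arrays and 29.5 and 36.0 on the IRF4/8 DKO arrays. IRF8 KO overlapped WT and the double loss lay below both. By its log2 difference of -2.00 it was the lowest of the list, and 2 other probe sets had the same sign. The surrogate light chain gene Igll1 had intensities of 119 and 76.6 (WT), 254 and 232 (IRF8 KO) and 139 and 136 (IRF4/8 DKO), part of the way back to WT, while its other probe set overlapped. Ebf1, the B cell factor, was at 56.1 and 69.8 for IRF8 KO against 38.5 and 15.1 for IRF4/8 DKO, while its other kept probe set overlapped. Vpreb1, the partner of Igll1, overlapped at 771 and 1275 against 668 and 1006.

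**Figure D4:**
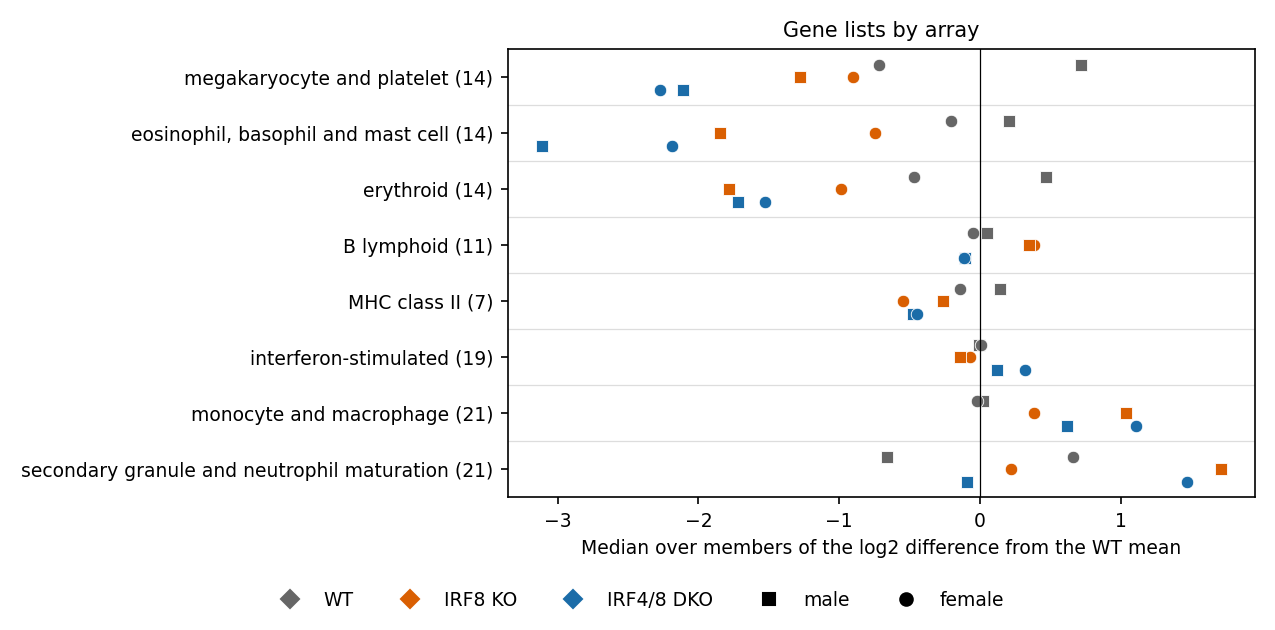
Median over the measured members of each list (number in brackets) of the log2 difference from the WT mean, per array, squares male and circles female. The IRF4/8 DKO arrays lie below the IRF8 KO arrays for megakaryocyte, eosinophil and B lymphoid lists, and for neutrophil maturation the arrays of each genotype are far apart.

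Among lower genes that reversed the single loss, Tdgf1, Src and Neto2 had the widest gaps. Tdgf1, the Nodal co-receptor Cripto, read 58.7 and 43.9 in WT, against 211 and 574 for IRF8 KO and 36.2 and 3.32 for IRF4/8 DKO. Src, the tyrosine kinase gene, measured 17.7 and 12.3 on the WT arrays, 51.3 and 51.5 on the IRF8 KO arrays and 2.85 and 1.45 on the IRF4/8 DKO arrays, with a log2 difference of -2.29 ± 0.36 (SE, n = 2 per genotype, limma adjusted p = 0.364). Neto2, an auxiliary subunit of glutamate receptors, had intensities of 145 and 193 (WT), 527 and 1189 (IRF8 KO) and 74.6 and 108 (IRF4/8 DKO). In these genes IRF8 KO was the highest genotype and the double loss lay below WT. Without IRF8 KO replicate 1 the log2 differences of Tdgf1, Src and Neto2 were -4.52, -2.30 and -3.58. Fscn1, the actin bundler of mature dendritic cells, read 105 and 29.4 in WT, against 87.1 and 459 for IRF8 KO and 11.2 and 3.79 for IRF4/8 DKO, and thus stood apart. The developmental genes Tfap2c, Fgf5 and Sall1 followed the course of Src at low levels. Sall1 read 34.3 and 39.3 in IRF8 KO against 1.73 to 5.54 in the other 4 arrays, while a second Fgf5 probe set did not share the difference (0.01).

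Among genes higher again in IRF4/8 DKO, B4galt4, a galactosyltransferase gene, measured 97.0 and 241 on the WT arrays, 15.4 and 15.4 on the IRF8 KO arrays and 128 and 335 on the IRF4/8 DKO arrays. Btla, an inhibitory receptor of lymphocytes and myeloid cells, had intensities of 144 and 201 (WT), 44.9 and 34.4 (IRF8 KO) and 275 and 425 (IRF4/8 DKO). It was higher by 2.82 ± 0.44 on the log2 scale (SE, n = 2 per genotype, limma adjusted p = 0.364). Inppl1, the inositol phosphatase SHIP2, read 19.6 and 30.0 in WT, against 8.69 and 15.3 for IRF8 KO and 145 and 93.8 for IRF4/8 DKO. These genes returned to or past WT. Batf, the AP-1 partner of IRF4 and IRF8, measured 424 and 840 on the WT arrays, 285 and 117 on the IRF8 KO arrays and 609 and 834 on the IRF4/8 DKO arrays, which was in the range of WT. Klf2, a transcription factor of quiescent cells, had intensities of 139 and 197 (WT), 54.9 and 25.3 (IRF8 KO) and 237 and 117 (IRF4/8 DKO). The neutrophil chemokine receptor gene Cxcr2 read 216 and 140 in WT, against 45.5 and 81.9 for IRF8 KO and 182 and 160 for IRF4/8 DKO, again in the range of WT. Retreg3, Ptprv, Phlda2, Dubr, Zfp52, Swsap1, Elobl, Gpr107 and Tm2d3 made up the rest of the 13 reversing genes among the 15 with the widest gap upward.

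Several monocyte and macrophage genes lay higher with the double loss. Of 25 listed genes 21 were measured. On every array 6 were higher and 1 lower (28.6% and 4.8%, against 17.6% and 18.0% of all genes). The share of higher members was smaller than that of the housekeeping list (33.3%). The median was 0.27, and -0.0006 without IRF4/8 DKO replicate 2. Cd14 measured 10.3 and 9.72 on the WT arrays, 12.96 and 14.0 on the IRF8 KO arrays and 84.4 and 123 on the IRF4/8 DKO arrays. The single loss left it near the floor and the double loss lay above it, a log2 difference of 2.24 ± 0.38 (SE, n = 2 per genotype, limma adjusted p = 0.427). Against WT it passed (limma adjusted p = 0.0447). Adgre1, the macrophage antigen F4/80, had intensities of 132 and 132 (WT), 516 and 840 (IRF8 KO) and 1058 and 1406 (IRF4/8 DKO). Ctss, another higher member, lay between IRF8 KO and WT. Outside the list, the inflammatory chemokine receptor gene Ccr1 read 4.47 and 33.3 in WT, against 533 and 388 for IRF8 KO and 1019 and 1172 for IRF4/8 DKO, so that the step from WT to the single loss was the larger. The coagulation factor gene F7, the homeodomain gene Hopx and the lectin receptor gene Clec4a3, also outside the list, extended the single loss too. Their gaps were 0.90 to 1.09. The step from WT to the single loss was the larger for Hopx (2.20 against 1.14 on the log2 scale). It was the smaller for F7 (1.24 against 1.28) and Clec4a3 (0.71 against 1.07). Cd180, a Toll-like receptor relative, was the lower member, at 212 and 241 against 365 and 588. Csf1r, Mpeg1, Lgals3 and Ly86 overlapped, and Ly86 read 3.22 to 11.0 in these arrays against 575 to 626 in WT.

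Granule genes showed no separation. For neutrophil maturation 1 of 21 measured members lay outside the IRF8 KO arrays, Cxcr2, which was higher (4.8%, against 17.6% of all genes). The list median was -0.03. The per-array medians of this list against WT were 0.22 and 1.71 for IRF8 KO, against -0.09 and 1.47 for IRF4/8 DKO. The spread within each genotype thus exceeded the difference between them. Lcn2, a granule protein gene, read 213 and 3500 for IRF8 KO against 221 and 3212 for IRF4/8 DKO. Azurophil granule genes had 2 of 11 higher and 1 lower (18.2% and 9.1%, against 17.6% and 18.0% of all genes). Elane, the neutrophil elastase, read 9386 and 9631 against 8953 and 9950. Ctsc, which activates these proteases, was the lower one, at 990.3 and 1002 against 1280 and 1982, while its 2 other probe sets overlapped.

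**Figure D5:**
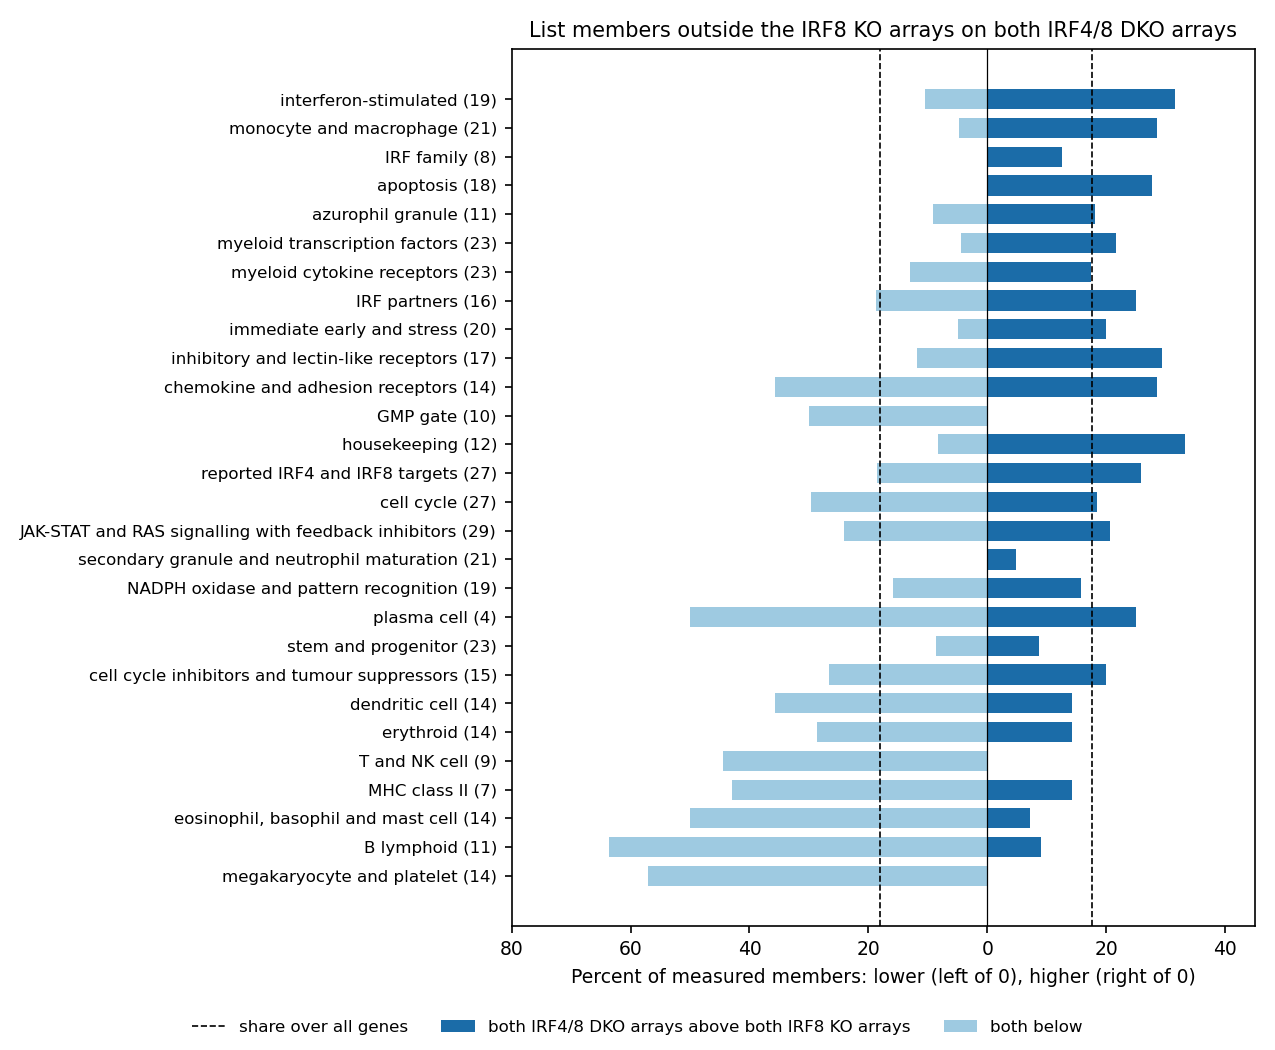
Percent of the measured members of each list (number in brackets) for which both IRF4/8 DKO arrays lay above (dark, right) or below (light, left) both IRF8 KO arrays, ordered by list median, with dashed lines at 17.6% and 18.0% for all genes. Megakaryocyte (57.1%), B lymphoid (63.6%) and eosinophil (50%) lists reach furthest to the left, the last level with the 4 plasma cell genes.

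Cell cycle genes had 5 of 27 higher and 8 lower (18.5% and 29.6%, against 17.6% and 18.0% of all genes). The median was -0.01. Cyclin E1, Ccne1, measured 221 and 232 on the WT arrays, 967 and 474 on the IRF8 KO arrays and 161 and 242 on the IRF4/8 DKO arrays, and a second probe set of Ccne1 also lay lower, by -2.09. The replication genes Rrm2 and Mcm2 were lower by gaps of 0.52 and 0.40. Apoptosis genes had 5 of 18 higher and 0 lower (27.8% and 0.0%, against 17.6% and 18.0% of all genes). Gaps were 0.10 to 0.31 among Apaf1, Bid, Bcl2l1 and Birc3. Another Bcl2l1 probe set was lower on every array, by -0.59, and the other of Birc3 overlapped (-0.22). Myeloid transcription factor genes had 5 of 23 higher and 1 lower (21.7% and 4.3%, against 17.6% and 18.0% of all genes). Nab2, a corepressor of EGR factors, stood apart at 146 and 642 against 83.1 and 52.7 in IRF8 KO, and Cebpa at 4252 and 5086 against 2509 and 3528. In WT Cebpa read 2759 and 4229, so its lower IRF4/8 DKO array was barely above the higher WT array. Chemokine and adhesion receptors had 4 of 14 higher and 5 lower (28.6% and 35.7%), both above the shares of all genes. Among the lower were C5ar1, the complement C5a receptor, at 270.5 and 464 against 993 and 1038, whose other probe set overlapped, and Cxcr4 at 4477 and 4917 against 6342 and 6544. Inhibitory and lectin-like receptors had 5 of 17 higher and 2 lower (29.4% and 11.8%, against 17.6% and 18.0% of all genes). Cd33 lay part of the way back to WT, at 200.5 and 354 against 541 and 628 in IRF8 KO and 37.9 and 45.1 in WT.

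The other lists are set against the shares of all genes, 17.6% higher and 18.0% lower. IRF partners had 4 of 16 higher and 3 lower (25% and 18.75%). Reported IRF4 and IRF8 targets had 7 and 5 of 27 (25.9% and 18.5%). Myeloid cytokine receptors had 4 and 3 of 23 (17.4% and 13.04%). JAK-STAT and RAS signalling genes had 6 and 7 of 29 (20.7% and 24.1%). Of 15 cell cycle inhibitors and tumour suppressors 3 were higher and 4 lower (20% and 26.7%). Spred1 and Dusp5, feedback inhibitors of RAS and MAP kinase signalling, were lower by gaps of 0.75 and 0.56, and Nf1, a RAS inhibitor, by 0.32. Of 6 other kept Spred1 probe sets 3 were lower on every array and 3 overlapped, and the 2 others of Nf1 overlapped. Stem and progenitor genes had 2 of 23 higher and 2 lower (8.7% each way). Immediate early and stress genes had 4 and 1 of 20 (20% and 5%). NADPH oxidase and pattern recognition genes had 3 and 3 of 19 (15.8% each way). T and NK cell genes had 0 of 9 higher and 4 lower (44.4% lower), all 4 with gaps of 0.32 or less. That lower share exceeded the share of the MHC class II list (42.9%). Plasma cell genes had 1 and 2 of 4 (25% and 50%), and the genes of the sort gate 0 and 3 of 10 (30% lower). These lists are small, so 1 gene moves a share widely. Housekeeping genes, with 4 of 12 higher and 1 lower (33.3% and 8.3%), had a larger share of higher members than the interferon list. Gaps were 0.13 to 0.24 among the 4 named (B2m, Gusb, Pgk1 and Rpl13a).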

How the data were processed

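The deposited intensities of 45037 probe sets were normalized and computed by the authors with the perfect-match/mismatch difference model of dChip 1.3, per the series' design text. The sources used here give no other settings. Values (0.69 to 16563.28) were transformed here to log2(value + 10.5), the 25th percentile of all values, a scale that understates the change of low genes. The deposited intensities carry no depth, so the number of arrays limits the precision.

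The 3 genotypes were fitted with limma 3.58.1 in R 4.3.3 (variance trend, 3 residual degrees of freedom, no covariates) over 29783 probe sets above the 40th percentile on at least 2 arrays. P-values were Benjamini-Hochberg adjusted with a threshold of 0.05, and measure only the spread between these samples. The kept probe set of highest mean stood for each gene. Symbols came from GEO's platform annotation (34945 probe sets with 1, 932 with several, 9160 with none). Promoter windows from RefSeq matched 110 of 128 named genes.

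Named genes were the IRF family, the 15 widest gaps each way, the 6 widest per direction among genes that extend, reverse or stand apart, up to 4 outside members per list, and the 10 lowest p. Other genes, such as overlapping list members, were named after their values were seen. Members and the 28 gene lists (a 29th, sex-linked, was a check) were chosen with earlier results of these data known. Alternatives were other pseudocounts (3.9, 39.23), filters and normalizations, variance settings, only these 4 arrays, sex, age or replicate number in the model, and leaving out each array. The procedures were tested on simulated data.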

Additional observations from a re-analysis of the deposited data

Results flagged for a closer look

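Between the male arrays of IRF4/8 DKO and IRF8 KO the median log2 difference of the neutrophil maturation list was -1.61, and between the female arrays it was 1.30, so the sexes differed in direction. The male IRF8 KO array and the female IRF4/8 DKO array had the higher summed intensities of these genes (78020 and 75004, against 41477 and 37726 for the other two). For immediate early and stress genes the median was 0.64 for the male pair and -0.41 for the female pair. Of 28 lists, 12 had opposite signs in the sexes at any size, and 2 did with at least 0.25 in both, a limit set after the values were seen. With 1 array per sex and genotype the difference between the sexes was not tested, and sex, age and animal cannot be told apart.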

How the results depend on the processing

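The limma count of 0 stayed 0 under 12 of 14 alternatives that kept all 4 arrays compared, and was 2 with age as a covariate (Pf4 and Cavin2, both lower) and 1 with a replicate block (Prg2, lower). With 1 of these left out it was 0 to 200. The numbers do not mark a shared animal, and the correlation of same-numbered deviations over 2 pairs was 0.2114 for IRF8 KO and IRF4/8 DKO, so the samples were not treated as paired. With 1 array left out, probe sets outside were 16283 to 32817 and those extending 1695 to 3733. Those reversing were 10599 to 23048 and those standing apart 2548 to 11074. Fewer arrays then have to separate, so the counts outside, extending and reversing could only stay equal or rise. Leaving out a WT array could not change the count outside, which uses no WT array. Over kept probe sets 2340 stood apart. With the filter at the 60th percentile, which leaves fewer probe sets, 7086 were outside, 467 extending, 4055 reversing and 1486 apart, and with a gap of at least 2-fold 525, 23, 419 and 76. Median centring gave 1082 extending higher and 294 lower, against 366 and 594, and 2762 apart higher and 977 lower, against 1484 and 2038. Of 2274 gene values under alternatives, 11 reversed direction, all in the IRF family with 1 array left out. IRF family genes were named whether or not the genotypes overlapped. The other named genes lay outside on every array, so leaving out 1 array could not reverse them, and their kept direction there is no support. With each array left out, Irf1 gave -0.32 to 0.46, Irf2 -0.12 to 0.44, Irf3 -0.65 to 0.76, Irf7 -0.27 to 0.92, Irf8 -0.27 to 0.60 and Irf9 -0.75 to 0.51. The list medians changed sign with 1 array left out for 17 of 29 lists, and with a scaling for 8, none of them the megakaryocyte, eosinophil, MHC class II, B lymphoid or interferon lists.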
